A study of Mus musculus with 6 samples.

Results

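Genes of glycolysis and of the transcriptional response to low oxygen were followed in whole mammary tumours. The set held 36 genes chosen by symbol: 15 glycolytic enzymes, 3 enzymes that regulate glycolytic flux, 2 transporters, 4 genes of the oxygen-sensing machinery and 12 further targets of the hypoxia-inducible factors (HIFs). A gene was measured where the array annotation gave a probe set to that gene alone, and the brightest such probe set stood for it, which left 33 of the 36 among 19937 genes measured in all. The 3 missing genes were glycolytic enzymes. Gapdh appeared only in 25 probe sets that carry several gene names, and Eno1 and Gpi1 were named by no probe set of the annotation, so 12 glycolytic enzymes were measured. Ero1l is named Ero1a in the annotation.

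The tumours came from 6 female FVBN mice aged 75 to 90 days before dosing, all carrying the MMTV-PyMT transgene, in which a mammary tumour virus promoter drives polyoma middle T antigen in mammary epithelium. In the group Tumor.DMSO, 3 mice received the DMSO vehicle, and in the group Tumor.TMP195, 3 mice received 50 mg/kg of TMP195, an inhibitor of class IIa histone deacetylases, once daily by intraperitoneal injection. The descriptions disagree on the length of dosing, with 5 days in one and 2 weeks in another. A single tumour per mouse was hybridised to an Affymetrix array, so each of the 3 values in a group is a separate animal, and precision is limited by there being 3 arrays a group. Levels are log2 of the deposited intensity, differences are TMP195 minus vehicle on that scale, and levels of different probe sets are not compared with each other.

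Glycolysis splits glucose into pyruvate and yields ATP without oxygen, and lactate dehydrogenase and lactate export keep it running. HIF-1 and HIF-2 are pairs of an oxygen-labile alpha subunit (Hif1a or Epas1) and the stable partner Arnt. With oxygen, the Egln prolyl hydroxylases mark the alpha subunit for degradation by the Vhl ubiquitin ligase. Without it, the subunit accumulates as a protein and binds hypoxia response elements, whose core reads ACGTG or GCGTG, near genes for glucose uptake, glycolysis, pH control and vessel growth. HIF activity is set largely at the protein level, which these arrays do not measure.

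The core ACGTG was looked for on both strands in the 250 bases before each RefSeq transcription start (build GRCm38.p6). It occurred in at least 1 window of 20 of the 31 measured members that have a window, or 64.5%, against 18.5% of all 27025 genes with a window and 20.9% of those measured here. By role it was found in 6 of 12 glycolytic enzymes (50.0%) and 8 of 11 other HIF targets (72.7%). The second core, GCGTG, occurred in 20 of 31 members (64.5%), 30.9% of all genes and 39.4% of those measured here. Of the 31 members, 4 (12.9%) held the E-box CACGTG, against 6.86% of all genes and 8.11% of those measured here. The E-box overlaps ACGTG and is also bound by other factors. A gene can have several windows (43 for the 31 members, 32851 for the 27025 genes), and each share counts a gene once. The set was chosen for its link to HIF, so these shares describe the list, and a match is not a measured binding site. Members whose 2 highest levels lay in vehicle tumour 2 and TMP195 tumour 2, described below, held ACGTG in 8 of 13 (61.5%). The other members with a window held it in 12 of 18 (66.7%). Adm, Aldoc, Pdk1, Pfkfb4 and Tpi1 are among the former and had no ACGTG in their windows. The windows below are examples picked from members that hold ACGTG. That core or its reverse complement CACGT is in capitals, each window written 5′ to 3′ along the gene:
Car9, chr4:43506776-43507025, plus strand: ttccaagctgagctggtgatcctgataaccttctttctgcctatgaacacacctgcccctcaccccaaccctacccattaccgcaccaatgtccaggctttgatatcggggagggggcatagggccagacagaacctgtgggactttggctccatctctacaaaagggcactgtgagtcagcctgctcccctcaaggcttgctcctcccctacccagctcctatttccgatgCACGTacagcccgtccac
Ankrd37, chr8:45999851-46000100, minus strand: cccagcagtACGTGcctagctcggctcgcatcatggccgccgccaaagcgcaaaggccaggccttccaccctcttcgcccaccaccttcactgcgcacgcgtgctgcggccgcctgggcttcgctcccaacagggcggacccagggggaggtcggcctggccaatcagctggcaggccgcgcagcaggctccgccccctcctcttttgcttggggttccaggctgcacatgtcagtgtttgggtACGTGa
Pgk1, chrX:106186850-106187099, plus strand: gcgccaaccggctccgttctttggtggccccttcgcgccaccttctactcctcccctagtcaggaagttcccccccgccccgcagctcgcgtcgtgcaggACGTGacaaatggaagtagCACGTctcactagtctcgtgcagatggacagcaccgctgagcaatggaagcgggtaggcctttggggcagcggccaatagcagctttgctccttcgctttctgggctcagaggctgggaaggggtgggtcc
Ldha, chr7:46845554-46845803, plus strand: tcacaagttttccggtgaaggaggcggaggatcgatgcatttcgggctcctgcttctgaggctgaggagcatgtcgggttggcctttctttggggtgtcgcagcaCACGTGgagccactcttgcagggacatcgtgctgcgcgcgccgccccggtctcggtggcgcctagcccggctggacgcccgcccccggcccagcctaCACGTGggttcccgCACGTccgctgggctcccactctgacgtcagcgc
Egln3, chr12:54203875-54204124, minus strand: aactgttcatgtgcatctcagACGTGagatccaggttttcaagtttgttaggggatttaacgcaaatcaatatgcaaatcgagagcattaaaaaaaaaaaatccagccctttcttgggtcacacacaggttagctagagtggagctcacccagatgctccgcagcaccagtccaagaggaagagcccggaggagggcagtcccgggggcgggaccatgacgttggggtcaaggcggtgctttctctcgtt
P4ha1, chr10:59323046-59323295, plus strand: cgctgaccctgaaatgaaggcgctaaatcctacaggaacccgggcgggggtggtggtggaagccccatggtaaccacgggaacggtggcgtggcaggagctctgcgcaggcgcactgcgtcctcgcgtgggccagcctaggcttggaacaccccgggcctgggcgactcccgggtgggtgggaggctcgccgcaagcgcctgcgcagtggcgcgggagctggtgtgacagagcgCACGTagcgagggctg
P4ha2, chr11:54100674-54100923, plus strand: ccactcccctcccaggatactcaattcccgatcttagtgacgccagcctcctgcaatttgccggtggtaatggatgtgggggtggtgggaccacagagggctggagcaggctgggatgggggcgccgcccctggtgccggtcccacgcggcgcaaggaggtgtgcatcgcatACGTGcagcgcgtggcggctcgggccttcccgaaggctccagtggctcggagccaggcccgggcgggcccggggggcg
Car9, P4ha1 and P4ha2 each held the core once, 18, 16 and 78 bases before the start, and Egln3 held it once, 229 bases before. Pgk1 and Ankrd37 each held it at 2 positions, and in Ldha a pair of E-boxes and a further core gave 5 matches over both strands.

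A part of the members varied from tumour to tumour in a shared pattern that crossed the dosing groups. TMP195 tumour 2 had the highest level in 18 of 33 members (54.5%) and vehicle tumour 2 in 9 (27.3%). Over all genes, TMP195 tumour 2 was highest in 25.4% and vehicle tumour 2 in 24.2%. Vehicle tumour 2 was thus near its share of all genes, and the excess of highest levels lay in TMP195 tumour 2. One or the other was highest in 27 of 33 members (81.8%), against 49.6% of all genes. In 14 of 33 members (42.4%), vehicle tumour 2 and TMP195 tumour 2 held the 2 highest levels, whichever came first. This was noticed in the values themselves and has no test. The same held for 10.4% of all genes, and no other of the 15 pairs of tumours held the 2 highest levels in more than 3 members. The count of 14 was the same with median centring, cyclic loess, the mean of a gene's probe sets or another choice of probe set. The members' median deviation from each gene's 6-tumour median was 0.24 in TMP195 tumour 2 and 0.12 in vehicle tumour 2, with the other 4 tumours from -0.074 to -0.0086.

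**Figure D1:**
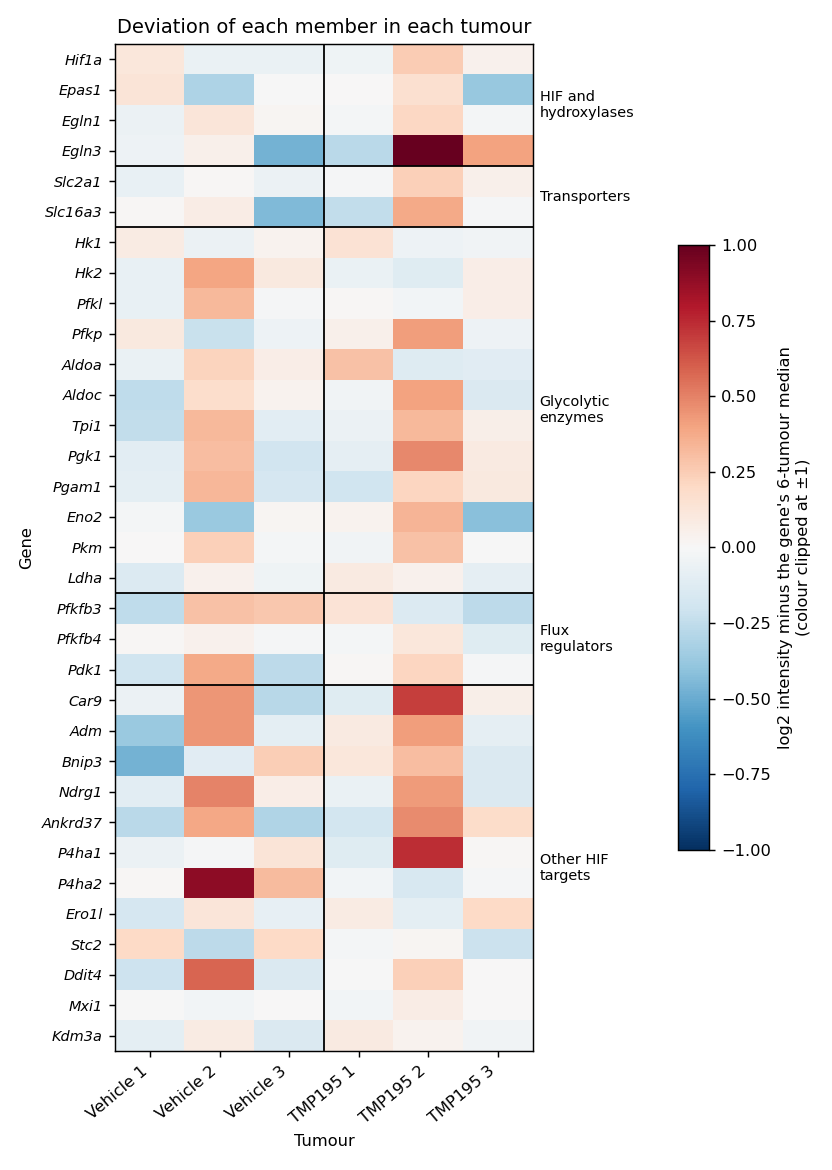
Log2 intensity of the 33 measured members (vertical axis, grouped by role) in each of the 6 tumours (horizontal axis), as the deviation from the gene's median over the 6 tumours, with red above and blue below. Red cells concentrate in the columns of vehicle tumour 2 and TMP195 tumour 2, which held the 2 highest levels in 14 genes.

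Among the other HIF targets, Car9, a cell-surface carbonic anhydrase used as a marker of hypoxic tumour regions, had the widest range of the genes that showed it. Taking tumours 1, 2 and 3 in turn here and below, its level was 6.82, 7.32 and 6.60 under vehicle and 6.76, 7.57 and 6.94 under TMP195. The 2 highest tumours lay in different groups and the groups overlapped, with a difference of 0.18 and a 95% interval of -0.44 to 0.79. Adm encodes the vasodilator peptide adrenomedullin. Adm was at 5.72, 6.54 and 6.0 under vehicle and 6.18, 6.51 and 6.01 under TMP195, again with tumour 2 of each group highest (difference 0.15, interval -0.39 to 0.68). Ankrd37, a small ankyrin repeat protein, was at 5.20, 5.85 and 5.16 under vehicle and 5.28, 5.94 and 5.65 under TMP195 (difference 0.22, interval -0.34 to 0.78). TMP195 tumour 3 came next in Ankrd37, and the groups overlapped. Ndrg1, a stress-responsive gene of the N-myc downregulated family, and Ddit4, which encodes the mTORC1 inhibitor REDD1, also had their 2 highest levels in these tumours. Ndrg1 ranged over 0.64 and differed by -0.08, and Ddit4 ranged over 0.79 and differed by 0.0029.

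Other targets departed from the pattern. Both P4ha1 and P4ha2 encode alpha subunits of collagen prolyl 4-hydroxylase, which stabilises the collagen triple helix, and their highest levels lay in different tumours. P4ha1 was at 7.50, 7.54 and 7.69 under vehicle and 7.43, 8.29 and 7.57 under TMP195. Only TMP195 tumour 2 was high, and the groups overlapped (difference 0.19, interval -0.34 to 0.71). P4ha2 was at 5.93, 6.81 and 6.23 under vehicle and 5.89, 5.75 and 5.90 under TMP195, so every TMP195 tumour lay below every vehicle tumour. The difference was -0.47 ± 0.21 (SE), or 1.39-fold lower, with an interval of -0.98 to 0.034, and it was -0.23 without vehicle tumour 2. P4ha2 was the only member whose groups did not overlap, 1 of 33, where groups lay apart in 3.21% of all genes with TMP195 lower, 3.47% with it higher and 6.68% in either direction. The P4ha1 to P4ha2 log2 ratio within a tumour was 0.73 in vehicle tumour 2 and 2.54 in TMP195 tumour 2, with the other 4 tumours from 1.45 to 1.67.

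Bnip3, a mitochondrial protein that promotes removal of mitochondria, was at 7.14, 7.49 and 7.86 under vehicle and 7.72, 7.92 and 7.46 under TMP195. The order of the tumours differed from that of Car9, and the groups overlapped (difference 0.20, interval -0.28 to 0.69). Its second probe set differed by 2.65e-05, so its probe sets disagreed on the size of the difference. Ero1l, an oxidase that forms disulphide bonds in the endoplasmic reticulum, was at 9.06, 9.36 and 9.15 under vehicle and 9.32, 9.14 and 9.43 under TMP195. No tumour stood apart in Ero1l (difference 0.11, interval -0.18 to 0.39). Kdm3a, a histone H3 lysine demethylase, was at 8.19, 8.37 and 8.15 under vehicle and 8.38, 8.33 and 8.25 under TMP195, within a range of 0.23. The secreted glycoprotein gene Stc2 had its lowest level in vehicle tumour 2 and ranged over 0.46 (difference -0.11). Mxi1, a repressor that competes with Myc for its partner Max, was the steadiest member, with a range of 0.10 and an SD at percentile 0.953 of all genes.

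**Figure D2:**
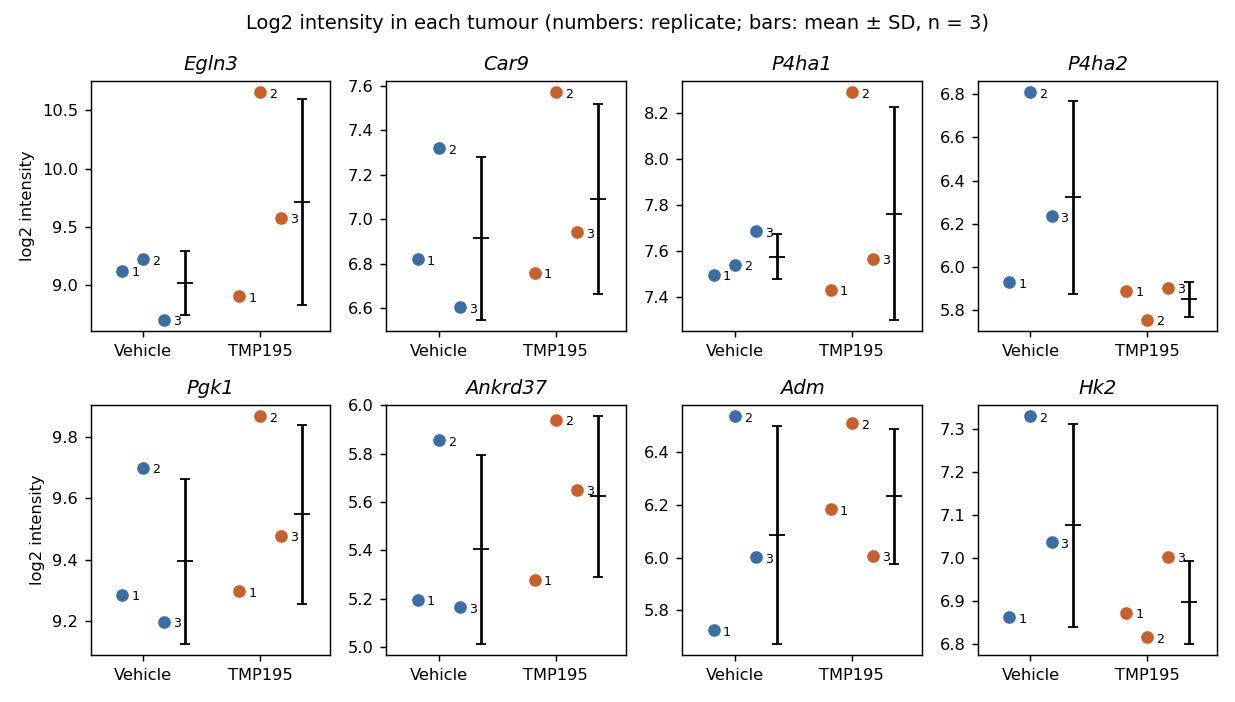
Log2 intensity (vertical axis) of 8 members in each tumour by dosing group (horizontal axis), with replicate numbers beside the points and bars for the mean ± SD (n = 3). Tumour 2 of each group is high in Car9, Pgk1, Ankrd37 and Adm, TMP195 tumour 2 alone in Egln3 and P4ha1, and vehicle tumour 2 alone in P4ha2 and Hk2.

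In the oxygen-sensing machinery, Egln3 varied most of all members. Egln3 encodes the prolyl hydroxylase PHD3, which is itself induced by HIF. It was at 9.13, 9.22 and 8.70 under vehicle and 8.91, 10.65 and 9.58 under TMP195. The range of 1.95, or 3.86-fold, put its SD at percentile 98.6 of all genes. TMP195 tumour 2 was highest by far, tumour 3 was second, and TMP195 tumour 1 lay within the vehicle group. The difference was 0.70 ± 0.41 (SE), or 1.62-fold higher, with an interval of -0.28 to 1.67, and it was 0.23 without TMP195 tumour 2 and 1.10 without TMP195 tumour 1. Egln3 was the only member to differ by 1.5-fold or more, 1 of 33, against 1.27% of all genes. Egln1, the main oxygen sensor PHD2, ranged over only 0.27 and differed by 0.03 (interval -0.22 to 0.28). Despite this small range, Egln1 counts among the members with their 2 highest levels in tumour 2 of each group. The log2 ratio of Egln3 to Egln1 ran from 0.97 to 1.47 in vehicle tumours and was 1.21, 2.73 and 1.88 in TMP195 tumours 1 to 3. Hif1a and Epas1 had their highest levels in TMP195 tumour 2 as well, at 9.15 and 8.58, but ranged over only 0.32 and 0.54. Hif1a differed by 0.09 (interval -0.18 to 0.36) and Epas1 by -0.0065 (interval -0.42 to 0.41). Vehicle tumour 2, high in Car9 and Adm, was second lowest in Hif1a, at 8.83, and in Epas1, at 8.11.

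Both transporters were highest in TMP195 tumour 2. Slc2a1, the glucose transporter GLUT1, was at 9.97, 10.05 and 9.98 under vehicle and 10.03, 10.28 and 10.10 under TMP195. The groups overlapped through vehicle tumour 2 alone (difference 0.13, interval -0.098 to 0.37), and with cyclic loess they no longer did. Slc16a3, the lactate exporter MCT4, was at 5.51, 5.57 and 5.06 under vehicle and 5.26, 5.88 and 5.49 under TMP195. Its 2 highest levels lay in tumour 2 of each group, and its difference was 0.16 (interval -0.31 to 0.64).

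Of the 12 glycolytic enzymes, 5 followed the pattern of Car9. Pgk1, phosphoglycerate kinase, was at 9.29, 9.70 and 9.20 under vehicle and 9.30, 9.87 and 9.48 under TMP195, with a difference of 0.15 (interval -0.30 to 0.61). Tumour 2 of each group was highest, and the other 4 tumours lay below both. Pgam1 (phosphoglycerate mutase), Pkm (pyruvate kinase), Tpi1 (triosephosphate isomerase) and the brain-type aldolase Aldoc were the other four. They ranged over 0.53 in Pgam1, 0.33 in Pkm, 0.57 in Tpi1 and 0.66 in Aldoc, and their differences lay between 0.015 and 0.12. For Pgk1 and Pgam1, 3 probe sets with the same accessions gave differences within 0.14 to 0.15 and 0.015 to 0.017, and they are not independent measurements. Eno2, neuronal enolase, was highest in TMP195 tumour 2 at 5.09 and second lowest in vehicle tumour 2 at 4.38. Ldha, lactate dehydrogenase A, ranged over 0.23 and differed by 0.06 (interval -0.17 to 0.29), and TMP195 tumour 1 was its highest tumour.

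Among the enzymes of the entry steps, Hk2, Pfkp and Pfkl were high in only 1 of these tumours. Hk2, the inducible hexokinase, was at 6.86, 7.33 and 7.04 under vehicle and 6.87, 6.82 and 7.0 under TMP195. Vehicle tumour 2 was highest and TMP195 tumour 2 lowest (difference -0.18, interval -0.50 to 0.14). Pfkp, the platelet-type phosphofructokinase, was at 8.81, 8.49 and 8.66 under vehicle and 8.76, 9.13 and 8.66 under TMP195, the reverse order for these tumours (difference 0.20, interval -0.16 to 0.56). Pfkl, the liver type, was highest in vehicle tumour 2, at 10.18, with the other 5 levels from 9.78 to 9.93. The Pfkp to Pfkl log2 ratio was therefore lowest in vehicle tumour 2, at -1.69, and highest in TMP195 tumour 2, at -0.70. Aldoa, the aldolase of muscle and many other tissues, was highest in TMP195 tumour 1 and lowest in TMP195 tumour 2, over a range of 0.42. Over 7 pairs of related enzymes or factors (Hk2 and Hk1, Pfkp and Pfkl, Aldoc and Aldoa, Pfkfb3 and Pfkfb4, P4ha1 and P4ha2, Egln3 and Egln1, Hif1a and Epas1), no ratio separated the groups. In exact two-sided permutation tests of the ratios, 3 tumours against 3 cannot go below p = 0.10, and the smallest was p = 0.20 (0.70 after Benjamini-Hochberg adjustment over the 7 pairs).

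Hk1 needs a reservation. Its brightest probe set carries the accession J05277 alone, which the annotation also gives to 16 probe sets named for both Hk1 and the ribosomal protein gene Rpl17. The largest gap between its centred values and the median profile of those 16 was 0.055, against 0.14 for the other Hk1 probe set, which carries J05277 beside RefSeq accessions. The first differed by -1.53e-04 and the second by 0.096, so the sign of Hk1 depends on the probe set, and the second was used for the ratio to Hk2.

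Of the 3 regulators of flux, none separated the groups. Pfkfb3, which makes the phosphofructokinase activator fructose-2,6-bisphosphate, was at 6.50, 7.04 and 7.01 under vehicle and 6.89, 6.61 and 6.48 under TMP195. The groups overlapped through vehicle tumour 1 alone, which lay just above TMP195 tumour 3 (difference -0.19, interval -0.62 to 0.24). Pfkfb4, a second such enzyme, ranged over only 0.24 and differed by -0.02. Its 2 highest levels also lay in tumour 2 of each group, with vehicle tumour 2 just 0.04 above the gene's median. Pdk1, a kinase that inhibits pyruvate dehydrogenase, had its 2 highest levels in tumour 2 of each group, ranged over 0.64 and differed by 0.10.

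Between dosing groups no member passed the test over all genes, and neither did any other gene (limma, adjusted p = 1.00 for each member). The test called 0 of 19937 genes, or 0%, while 502 genes (2.52%) had an unadjusted p under 0.05 and 0 members did. Of the 33 members, 23 had a positive difference (69.7%), against 49.5% of all genes. Without TMP195 tumour 2 the count was 14 of 33, against 47.4% of all genes. The median difference was 0.037 over the 12 glycolytic enzymes, 0.093 over the 12 other HIF targets and 0.081 over all measured members, against -0.0014 over all genes. Without TMP195 tumour 2 these medians turned to -0.024, -0.032 and -0.0063. Leaving out vehicle tumour 1 gave -0.011, 0.028 and 0.015, leaving out vehicle tumour 2 gave 0.099, 0.18 and 0.12, and leaving out vehicle tumour 3 gave 0.031, 0.034 and 0.029. With array weights, which count less consistent arrays less, they fell to 0.0024, 0.039 and 0.0068. Preferring probe sets with a RefSeq accession, which swaps that of Hk1, gave 0.073, 0.093 and 0.088. The glycolytic median thus lay closer to that of the other HIF targets. The 95% interval held 0 in all 33 members. It lay within 2-fold either way in 32 of them, all but Egln3, and within 1.5-fold in 22, with a median half-width of 0.41.

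**Figure D3:**
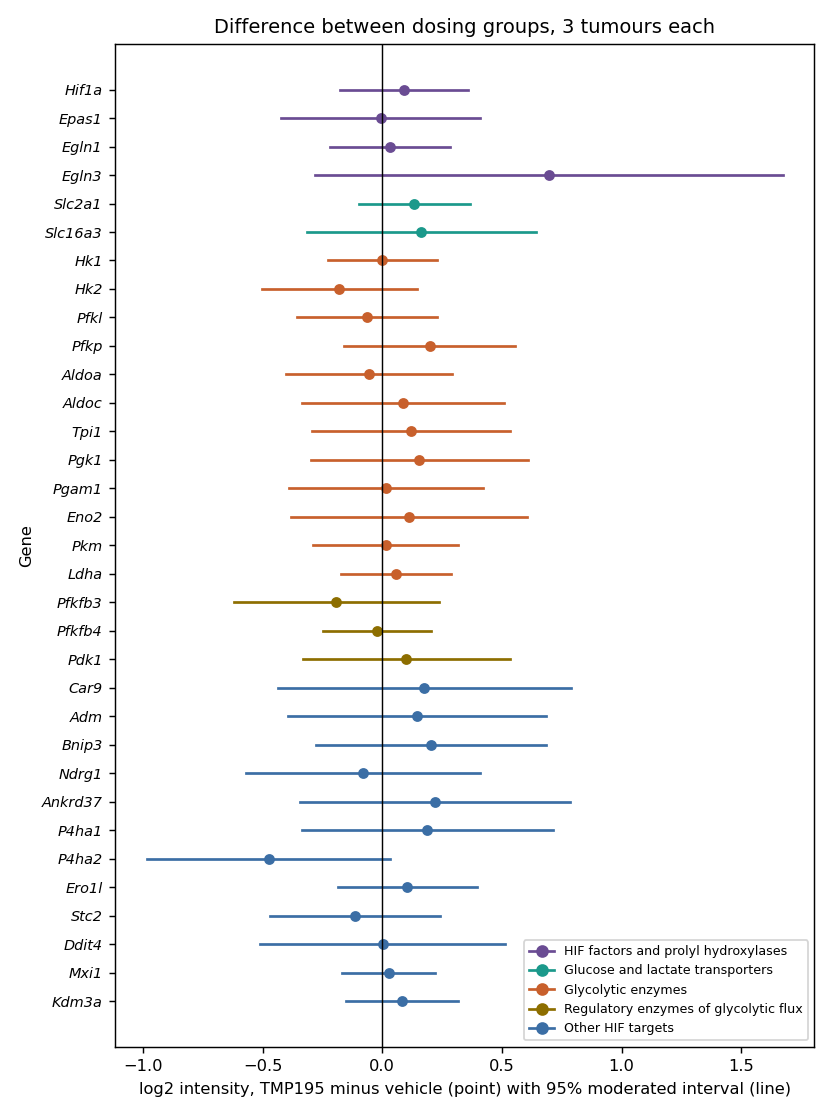
Difference in log2 intensity, TMP195 minus vehicle (horizontal axis, points), with its 95% moderated interval (lines) for each of the 33 measured members, coloured by role (3 tumours a group). Every interval crosses 0, P4ha2 reaches furthest below 0 and Egln3 furthest above.

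Glycolytic enzymes and other HIF targets are set side by side here as a description, with no test of their difference. Of 12 in each list, 5 had their 2 highest levels in vehicle tumour 2 and TMP195 tumour 2. The median deviation in vehicle tumour 2 was 0.23 for glycolytic enzymes and 0.26 for other HIF targets, and in TMP195 tumour 2 it was 0.26 and 0.27. The median range over the 6 tumours was 0.52 for glycolytic enzymes and 0.78 for other HIF targets, against 0.42 for all genes. The probe sets of the lists also differed in brightness. List means over the tumours ran from 9.66 to 9.91 for glycolytic enzymes and from 7.35 to 7.75 for other HIF targets. The part of brightness in the ranges was not tested. A range of at least 1.00, or 2-fold, was reached by 0 glycolytic enzymes and by P4ha2 among the other targets, and with Egln3 by 2 of 33 members (6.06%), against 7.64% of all genes.

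**Figure D4:**
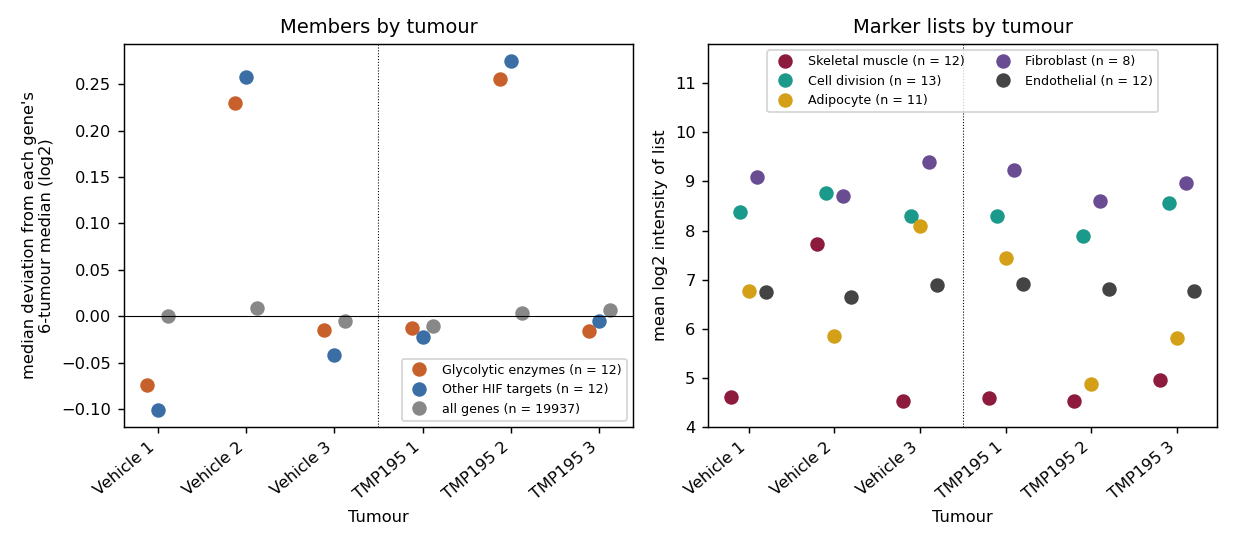
Left, median deviation of glycolytic enzymes, other HIF targets and all genes from each gene's 6-tumour median (vertical axis, log2) in each tumour. Right, mean log2 intensity of 5 marker lists in the same tumours: the muscle list is high in vehicle tumour 2 alone, and the cell division list is highest in vehicle tumour 2 and lowest in TMP195 tumour 2.

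The tumours that were high in these genes differed in muscle and cell division markers, and both were low in adipocyte and fibroblast markers. Epithelial markers were bright in every tumour (10 of 10 measured, list means 10.25 to 10.38 under vehicle and 10.27 to 10.43 under TMP195), and are those of the cells in which the transgene is active. The skeletal muscle list (12 of 12 measured) averaged 7.72 in vehicle tumour 2 and from 4.52 to 4.97 in the other 5 tumours, and all 12 genes were highest there. Muscle isoforms of glycolysis, no members of the set, were high in the same tumour: Eno3 was at 8.02 there and from 5.35 to 5.65 elsewhere, and Pgam2 at 6.03 against 4.04 to 4.42. The part of muscle in the member levels of vehicle tumour 2 was not tested, while in TMP195 tumour 2 the muscle list was at 4.53. The cell division list (13 of 14 measured) averaged 8.77 in vehicle tumour 2, where 11 of 13 genes were highest, and 7.89 in TMP195 tumour 2, where 12 of 13 were lowest. Its other means ran from 8.29 to 8.55. The adipocyte list (11 of 12) averaged 6.77, 5.85 and 8.09 under vehicle and 7.45, 4.86 and 5.81 under TMP195, so tumour 2 was the lowest of each group. In both of these tumours, as in TMP195 tumour 3, 0 of 11 adipocyte genes lay above their 6-tumour median. Fibroblast markers (8 of 8) were lowest at 8.61 in TMP195 tumour 2 and 8.70 in vehicle tumour 2. Endothelial markers (12 of 12) lay between 6.64 and 6.88 under vehicle and 6.77 and 6.92 under TMP195. T cell markers (7 of 8) ran from 4.12 to 4.34 and from 4.17 to 4.66, with TMP195 tumour 2 highest. Macrophage markers (12 of 12) spanned 7.651 to 7.852 under vehicle and 7.481 to 7.648 under TMP195, so these list means narrowly did not overlap. Of the 12 macrophage genes, 11 were lower under TMP195 and 1 higher, where 49.5% of all genes were higher. In 1 of the 12, every TMP195 tumour lay below every vehicle tumour, where 3.21% of all genes lay apart that way and 6.68% in either direction. Neutrophil markers (8 of 8) spanned 3.79 to 4.04 and 3.63 to 4.12. Erythrocyte markers (2 of 8) spanned 4.84 to 5.02 and 4.63 to 4.81, so their list means did not overlap either. What part these lists have in the member levels was not tested. In a whole tumour, more cells of a type and more RNA per cell cannot be told apart.

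Further genes of the same pathways were taken from a pair of lists that share no member with the set. Of 28 measured HIF pathway genes (30 listed), 20 were higher (71.4%, against 49.5% of all genes) and 8 lower under TMP195, and 0 passed the test. TMP195 tumour 2 was highest in 14 of 28 of them (50.0%, against 25.4% of all genes). Vehicle tumour 2 was highest in 6 (21.4%, against 24.2%). These tumours held the 2 highest levels in 5 of 28 (17.9%, against 10.4% of all genes). Vldlr, a lipoprotein receptor, was at 7.91, 7.54 and 7.88 under vehicle and 8.06, 8.85 and 7.98 under TMP195, so the groups did not overlap (difference 0.52 ± 0.24 SE). Insig2, which restrains cholesterol synthesis, was the other of 2 genes on the list with every TMP195 tumour above every vehicle tumour (difference 0.16), a count to set beside 3.47% of all genes. Zfp395, a zinc finger protein, differed by 0.35, the HIF partner Arnt2 by -0.43 and Angptl4, an inhibitor of lipoprotein lipase, by -0.77. In Zfp395, Arnt2 and Angptl4 the groups overlapped. Angptl4 was highest in vehicle tumour 3, at 9.32, and lowest in TMP195 tumour 2, at 7.31, as was the adipocyte list. The part of that list in Angptl4 was not tested. Vegfa, the vascular growth factor, was chosen after its values were seen and had the pattern of Car9, at 7.74, 8.54 and 7.92 under vehicle and 8.11, 8.73 and 8.11 under TMP195. Of 23 measured other glycolysis genes (26 listed), 7 were higher (30.4%, against 49.5% of all genes) and 16 lower, and 0 passed the test. In 3 of the 23 (13.0%, against 10.4% of all genes), tumour 2 of each group held the 2 highest levels. These genes were not high in TMP195 tumour 2, which was highest in 2 of 23 (8.70%, against 25.4% of all genes) and had a median deviation of -0.051. Vehicle tumour 2 was highest in 11 of 23 (47.8%, against 24.2% of all genes), the muscle isoforms Eno3 and Pgam2 among them.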

How the data were processed

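Whole tumours of 6 mice were measured on Affymetrix arrays. The deposited values are array intensity, with RMA and Affymetrix Power Tools named in the submitters' processing notes. Versions, filters and the genome build were not given in the sources used here. RMA yields log2 values, but these were taken as linear because all lie above 0, with medians of 44.8 to 46.4 and maxima from 8137 to 8873. Centring is not stated, and quantile normalization, a usual step of RMA, can hide a shift shared by most genes.

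Of 27359 probe sets, 21784 had 1 gene symbol in the platform annotation, 1620 several and 3955 none; Entrez IDs of 21693 were found in RefSeq (GRCm38.p6) and 0 symbols changed. The brightest probe set per gene gave 19937 genes, and dim genes were kept. limma 3.58.1 in R 4.3.3 was fitted to log2 intensity (lmFit, eBayes, no covariate, two-sided, Benjamini-Hochberg over all genes, threshold 0.05), and the pipeline was tested on simulated data. The members, lists and tests were chosen with earlier results of these data known. All members were named; values in every tumour were given for the 12 with the smallest unadjusted p and the 6 with the widest range, and for Pgk1 and Vegfa after their values were seen, as were Eno3, Pgam2, Insig2 and Pgf. Up to 4 genes of each further pathway list were named by the smallest p.

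Alternatives tried were cyclic loess, median centring, log2(intensity + 16), a filter at the 30th percentile of intensity, a robust trended prior, a replicate block, testing every probe set, the mean of a gene's probe sets, array weights, leaving out each tumour, and leaving out tumour 2 of both groups. Preferring probe sets with a RefSeq accession was added after seeing the Hk1 values.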

Additional observations from a re-analysis of the deposited data

How the results depend on the processing

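No gene was called under any of the 17 alternatives (limma), with 243 to 938 genes at an unadjusted p under 0.05, and no member's adjusted p fell below 0.963. The count of members with a positive difference ran from 14 to 27 when each tumour was left out, from 23, and lay between 19 and 24 otherwise. The median difference of all members ran from -0.0063 to 0.12 with 1 tumour left out, that of glycolytic enzymes from -0.024 to 0.099 and that of other HIF targets from -0.032 to 0.18.

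The replicate number as a block left 0 genes called. Each group holds every number, so such a block cannot change a difference, and the unchanged differences carry no information. The labels do not say whether numbers 1 to 3 pair the tumours. Over all genes, deviations from the group means correlated at -0.21, -0.063 and -0.097 for tumours 1, 2 and 3. Across unlike numbers the correlations ran from -0.18 to 0.34. With 3 arrays a group, the deviations within a group must sum to 0, so these correlations cannot decide whether the numbers pair. 

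In 10 of 33 members the sign held under every alternative run: Ankrd37, Egln3, Ero1l, Hk2, Kdm3a, Ldha, P4ha2, Pfkfb3, Slc2a1 and Stc2. Their sizes did not hold. With 1 tumour left out, the differences ran from 0.0605 to 0.444 in Ankrd37, 0.225 to 1.1 in Egln3, 0.0369 to 0.189 in Ero1l, -0.286 to -0.0522 in Hk2, 0.0359 to 0.149 in Kdm3a, 0.0122 to 0.111 in Ldha, -0.673 to -0.232 in P4ha2, -0.369 to -0.0969 in Pfkfb3, 0.0632 to 0.186 in Slc2a1 and -0.267 to -0.037 in Stc2. Bnip3, Hif1a and Pfkp, which turned only under the settings below, ran from 0.0253 to 0.385, 0.00711 to 0.153 and 0.059 to 0.293. For 20 members it turned when 1 tumour was left out, with these lowest and highest differences: Adm -0.0355 and 0.37, Aldoa -0.196 and 0.0177, Aldoc -0.0759 and 0.199, Car9 -0.0641 and 0.378, Ddit4 -0.139 and 0.254, Egln1 -0.0444 and 0.0786, Eno2 -0.0654 and 0.312, Epas1 -0.13 and 0.148, Hk1 -0.0607 and 0.0346, Mxi1 -8.62e-04 and 0.0483, Ndrg1 -0.259 and 0.0886, P4ha1 -0.0755 and 0.354, Pdk1 -0.0166 and 0.304, Pfkfb4 -0.0844 and 0.0352, Pfkl -0.14 and 0.0581, Pgam1 -0.0791 and 0.173, Pgk1 -0.00632 and 0.307, Pkm -0.0889 and 0.0968, Slc16a3 -0.00555 and 0.307, and Tpi1 -1.35e-04 and 0.285. Array weights turned Aldoc to -0.0245, Bnip3 to -0.0167, Egln1 to -0.0064, Eno2 to -0.0873, Hk1 to 0.00325, P4ha1 to -0.00899, Pfkl to 0.00147 and Pkm to -1.45e-05. Leaving out tumour 2 of both groups turned Aldoa to 0.0897, Eno2 to -0.19, Hif1a to -0.0229, Mxi1 to -0.0101, P4ha1 to -0.0921, Pfkl to 0.0799, Pfkp to -0.0218 and Pkm to -0.00714. Hk1 also turned with median centring (0.00579), the mean of its probe sets (0.0478) and its RefSeq probe set (0.0957). The cause of these turns was not tested beyond the tumour or probe set named.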

Other observations

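The 4 genes with the smallest p among the 23 further glycolysis genes measured were Pdk4, Gpd1, Slc2a4 and Pklr. Pdk4, a further pyruvate dehydrogenase kinase, was at 5.37, 6.97 and 7.58 under vehicle and 6.53, 2.83 and 4.66 under TMP195 (tumours 1, 2 and 3 in turn). In Pdk4 vehicle tumour 3 was highest and TMP195 tumour 2 lowest, and the groups overlapped (difference -1.97 ± 0.96 SE). Gpd1, the cytosolic glycerol-3-phosphate dehydrogenase, had its extremes in the same tumours, at 9.78 and 8.34 (difference -0.48), as did Slc2a4, the insulin-responsive glucose transporter GLUT4, at 5.93 and 5.36 (difference -0.27). The adipocyte list was also highest in vehicle tumour 3, at 8.09, and lowest in TMP195 tumour 2, at 4.86. In vehicle tumour 2 it was low, at 5.85, and the muscle list high, at 7.72, while Pdk4 and Slc2a4, at 5.75, had their second highest levels there. The part of either list in these values was not tested. Pklr, the pyruvate kinase of liver and red cells, differed by 0.17 ± 0.10 (SE) and was the only gene of the 23 whose groups did not overlap, where 3.47% of all genes lay apart with TMP195 higher and 6.68% in either direction. Pklr was dim, from 3.66 to 3.93 under vehicle and 3.94 to 4.06 under TMP195, while the mean over all genes was 5.75 to 5.78 in the tumours. Pgf, placental growth factor, was chosen after its values were seen and reached 10.06 in TMP195 tumour 2, with the other 5 levels from 7.45 to 8.21.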
